A study of Mus musculus with 18 samples.

Results

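The enzymes and transporters of glucose breakdown, 40 of the 55469 genes in the deposited tables, were followed through the ventral and lateral prostate lobes of Elac2 mutant mice. They were chosen by name as the genes that carry glucose into the cell, split it in glycolysis, interconvert pyruvate and lactate, and oxidise pyruvate in the mitochondrial TCA cycle, and all 40 were measured in all 18 libraries. Pfkm and Slc2a4, isoforms rich in muscle, were named separately from the other 38, but counts and medians over the 40 include them. The KO mice lack Elac2 exon 8 in the prostate through a Pb-Cre transgene, which acts in prostate epithelium, so that other cells of the lobes keep the gene. The A537T mice carry a homozygous alanine to threonine change in the protein in every cell, and the WT mice carry ELAC2+/+. All were males of the strain labelled C56NL/6N on normal chow, aged 10 or 30 weeks, with 3 libraries for each of the 6 groups, and the lines crossed with TRAMP were not analysed here. The study describes its replicates as biological, and the labels number the libraries of a group without tying each to a mouse, so p-values measure the spread between these libraries.

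Glycolysis turns glucose into pyruvate in the cytosol through a chain of enzymes, many of which exist as isoforms made in different tissues. Pyruvate is either reduced to lactate by lactate dehydrogenase or enters mitochondria, where the pyruvate dehydrogenase complex makes the acetyl-CoA that the TCA cycle oxidises. The prostate epithelium is known for secreting citrate, an intermediate of that cycle, while skeletal muscle is a tissue with very abundant glycolytic mRNAs.

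The normalized counts used here are estimated gene counts divided by the authors' size factor for each library, in tables that each set 1 mutant group beside the 3 WT libraries of equal age, so both lines share those WT libraries. Libraries held 6569642 to 11225281 counts, with a median of 8586877 over the 18 libraries. Elac2 itself was at 115 ± 4.09 normalized counts in the KO libraries of 10 weeks (SD, n = 3) and 144 ± 21.1 in WT, and at 124 ± 26.5 and 166 ± 24.7 at 30 weeks, a level that does not check the labels, since reads are summed over the gene whether or not exon 8 is present. Markers of luminal prostate epithelium took 0.510 to 4.71% of normalized counts and none of the 10 was at 0 in any library. Their share at 10 weeks was 0.813, 2.36 and 2.67% in WT libraries 10AF, 11AF and 12AF. KO libraries 13AF, 14AF and 15AF had 0.905, 0.814 and 0.510%, a lower median than WT with overlap at 10AF. The A537T libraries of that age had 1.87, 1.67 and 1.53%, inside the WT range. In the 30-week KO table the luminal share ran from 1.33 to 4.71% in KO beside 1.97 to 4.02% in WT. The dissection used by the study took away the seminal vesicles, bladder and urethra before the lobes were collected. Some libraries stood apart in other tissue markers. At 10 weeks the 32 skeletal muscle markers took 4.24, 6.94 and 13.4% of normalized counts in WT libraries 10AF, 11AF and 12AF, 0.184% in KO library 13AF, 2.23% in 14AF and 0.157% in 15AF, and 4.63% in A537T library 16AF, 3.48% in 17AF and 1.79% in 18AF. At 30 weeks they took 0.0399 to 0.130%. The 10 measured seminal vesicle markers took 4.64, 1.77 and 0.000847% in the same WT libraries, 9.49, 6.56 and 10.3% in KO and 0.200, 0.142 and 0.0397% in A537T at 10 weeks. At 30 weeks they took 8.55% in KO library 4AF, 6.34% in 6AF, 7.25% in A537T library 7AF and 9.18% in 9AF, but 0.0000802% in KO library 5AF and 0.000126% in A537T library 8AF. Basal epithelium markers took 0.0126 to 0.0160% in KO and 0.00638 to 0.0112% in WT at 10 weeks. Adipocyte markers took 0.0874 to 0.0905% in A537T and 0.0496 to 0.0787% in WT at 10 weeks. No member is on a marker list. Gapdh, Ldha and Eno1 have near-identical copies in the genome, Eno1b among them, with which reads may be shared, and their levels carry that uncertainty. The part of these tissues in the results was not tested, and in whole lobes fewer cells of a type and less RNA per cell cannot be told apart.

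The question at 10 weeks was how loss of Elac2 in the prostate epithelium changes these mRNAs. In KO, 36 of the 40 members had a lower level than WT and 31 were lower in every KO library than in every WT library, against 14.3% of the 15089 genes that averaged 10 normalized counts or more. None was higher without overlap, against 11.7% of those genes. The median log2 fold change was -0.73 for the members and -0.0061 for all genes tested. Of the 38 members other than Pfkm and Slc2a4, 34 were lower, 29 of them without overlap, and their median was -0.71. With limma on log2(normalized count + 1), no member passed a Benjamini-Hochberg adjusted p of 0.05 and neither did any other gene (0% called), and edgeR also called none (0%). At an unadjusted p under 0.05 limma gave 30 members lower and none higher, against 11.5% and 7.97% of genes. DESeq2 on recovered counts called 17 members, all lower, against 4.75% of genes. These were Slc2a4, 10 enzymes from Gpi1 to Ldha, the kinase Pdk4 and the TCA cycle genes Idh3a, Idh3b, Suclg1, Fh1 and Mdh2. Without WT library 10AF limma called 26 members against 19.2% of genes, and without KO library 14AF it called 2 against 1.23%. With a skeletal muscle marker score as a covariate 1 member was at an unadjusted p under 0.05 against 1.96% of genes. With a seminal vesicle score 15 were, against 5.06%. The skeletal muscle score, a mean log2 over the markers, was 11.6 to 13.6 in WT and 4.13 to 10.7 in KO. The seminal vesicle score was 2.14 to 11.1 in WT and 12.2 to 12.7 in KO. Both scores separated the groups, so these fits cannot tell group from score.

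In the first steps of glycolysis the isoforms rich in muscle stood furthest from WT. Pfkm (chromosome 15, 98092589 to 98132451 of GRCm38), the muscle-type phosphofructokinase that commits sugar to glycolysis, had normalized counts of 2209, 4111 and 9103 in WT and 198, 1182 and 159 in KO. Every KO library lay below every WT library, and KO library 14AF lay closest to WT. On the log2 scale the difference was -3.70 ± 0.84 (SE, limma's adjusted p = 0.183). Slc2a4 (chromosome 11, 69942539 to 69948188), the insulin-regulated glucose transporter of muscle and fat, had 451, 666 and 1686 in WT and 139, 221 and 113 in KO, again without overlap, and a log2 fold change of -2.39 ± 0.49 (limma, adjusted p = 0.183). The isoforms widespread outside muscle overlapped with WT. Pfkl, the liver-type phosphofructokinase, had 304, 418 and 454 in WT and 389, 327 and 407 in KO, and the groups overlapped at a log2 difference of -0.053 ± 0.18. Pfkp, the platelet type, differed by 0.18 ± 0.29. Hk1, a hexokinase that traps glucose as glucose 6-phosphate in most tissues, differed by 0.11 ± 0.21, and Slc2a1, the widespread glucose transporter, by 0.57 ± 0.27, both with overlap. Hk2, the hexokinase of muscle and many growing cells, had 538, 1815 and 3503 in WT and 322, 651 and 128 in KO. KO library 14AF exceeded WT library 10AF, so the groups overlapped at a log2 difference of -2.33 ± 0.80.

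**Figure D1:**
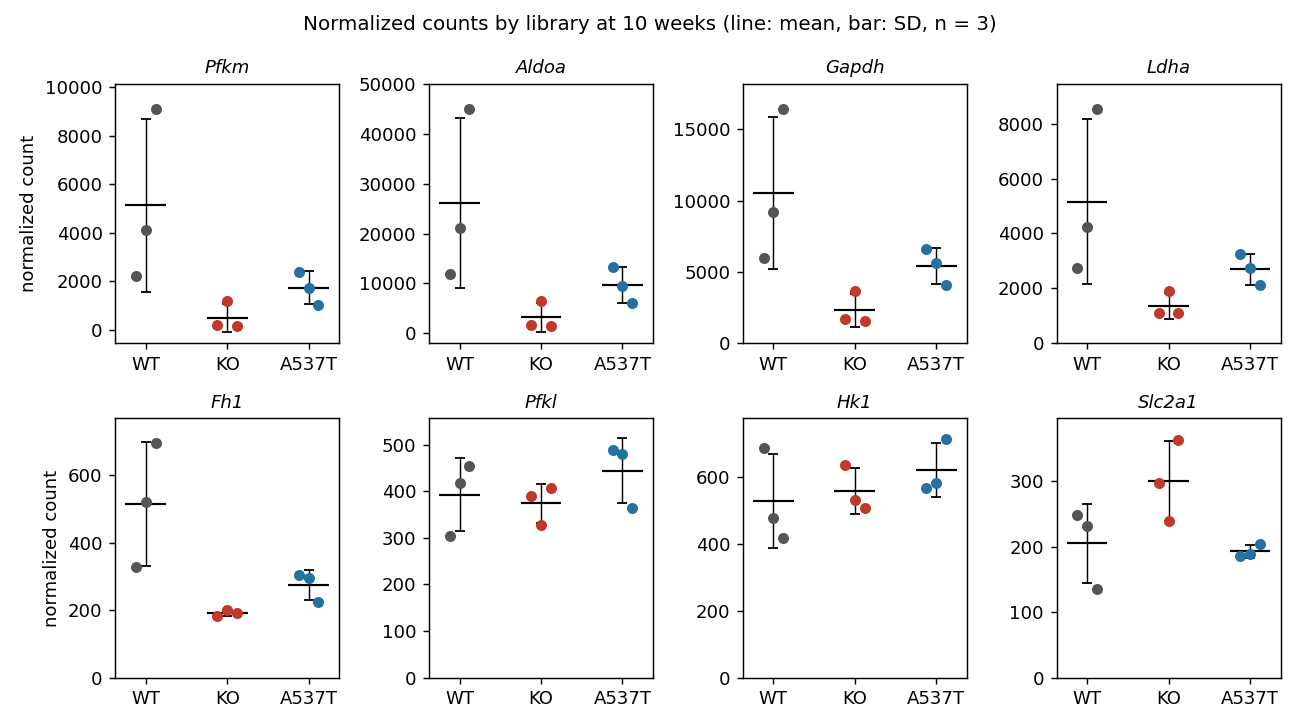
Normalized counts of 8 members at 10 weeks, with 1 point per library, grouped as WT, KO and A537T on the x axis (line, mean; bar, SD, n = 3; WT values from the KO table). A537T values come from their own table, normalized separately from the WT values drawn. Pfkm, Aldoa, Gapdh, Ldha and Fh1 were lower in every KO library than in any WT library, whereas Pfkl, Hk1 and Slc2a1 overlapped.

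From the aldolase step to pyruvate every member except Eno2 was lower in KO without overlap. Aldoa (chromosome 7, 126795234 to 126800751), which splits fructose 1,6-bisphosphate and is the aldolase of muscle, had 11941, 21194 and 45056 in WT and 1657, 6484 and 1333 in KO, a log2 fold change of -3.21 ± 0.70 (limma, adjusted p = 0.183). Gapdh, which makes the first NADH of the pathway, had 5971, 9224 and 16413 in WT and 1672, 3628 and 1556 in KO and a log2 fold change of -2.19 ± 0.45 (limma, adjusted p = 0.183). In both genes the range within WT was wider than the gap between the nearest KO and WT libraries. Tpi1, which interconverts the triose phosphates, differed by -2.09 ± 0.45, the pyruvate kinase Pkm by -1.86 ± 0.41 and the phosphoglycerate kinase Pgk1 by -1.53 ± 0.36 on the log2 scale. Smaller differences without overlap were seen for Eno1 (-0.83 ± 0.14), the widespread enolase, Aldoc (-0.83 ± 0.19), an aldolase best known from brain, Gpi1 (-0.75 ± 0.16), which isomerises glucose 6-phosphate, and Pgam1 (-0.68 ± 0.17), the phosphoglycerate mutase of non-muscle tissue. Eno2, the neuronal enolase, had 136, 24.99 and 42.8 in WT and 76.5, 79.6 and 77.7 in KO, with WT on both sides of KO. Levels between isoforms were compared per kilobase of exon within a library. Pfkm made up 82.8, 90.4 and 95.0% of phosphofructokinase counts per kilobase in WT and 29.2, 74.9 and 24.5% in KO. The mean was 89.4 ± 6.16% in WT and 42.9 ± 27.8% in KO (SD, n = 3, two-sided exact permutation p = 0.1, the smallest that 3 against 3 allows). Adjustment over the share tests can only raise this p. Slc2a4 made up 67.8, 77.0 and 93.5% of the pair with Slc2a1 in WT and 35.2, 51.7 and 26.6% in KO (exact permutation p = 0.1). The share of Hk2 against Hk1 was 68.3 ± 24.8% in WT and 33.3 ± 16.97% in KO, with overlap (exact permutation p = 0.2, n = 3).

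**Figure D2:**
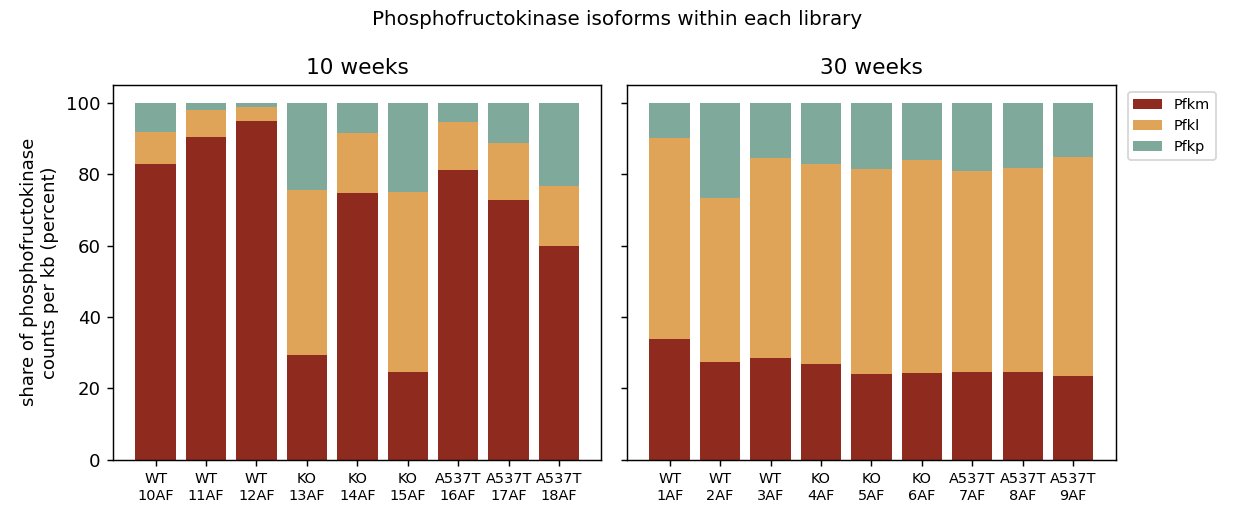
Shares of Pfkm, Pfkl and Pfkp in phosphofructokinase counts per kilobase of exon (y axis, percent), with 1 stacked bar per library, at 10 and 30 weeks. Pfkm held the largest share in the WT and A537T libraries and in KO library 14AF at 10 weeks, and Pfkl held it in KO libraries 13AF and 15AF and in all libraries at 30 weeks.

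At the pyruvate branch point both outlets were lower in KO. Ldha (chromosome 7, 46841475 to 46855627), the lactate dehydrogenase subunit that predominates in muscle, had 2721, 4223 and 8556 in WT and 1075, 1883 and 1093 in KO. Its log2 fold change was -1.82 ± 0.43 without overlap (limma, adjusted p = 0.183). Ldhb, the heart-type subunit, differed by -0.86 ± 0.27, also without overlap. The 4 members from the pyruvate dehydrogenase complex were each lower without overlap. They ran from -0.42 for Pdha1, a subunit of the first enzyme, through Dld and Pdhb to -0.70 for Dlat, the acetyl-transferring core. The kinases that switch the complex off differed more among themselves. Pdk4, the kinase induced in muscle by fasting, had 400.1, 499 and 943 in WT and 132, 368 and 72.0 in KO, a log2 fold change of -1.91 ± 0.60 (limma, adjusted p = 0.189). Pdk1 differed by -0.67 ± 0.19 and Pdk2 by -0.37 ± 0.13, and all 3 kinases were without overlap.

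In the mitochondrial TCA cycle, 9 of the 10 members were lower in KO without overlap, with a median log2 fold change of -0.78. Idh3a, the catalytic subunit of the NAD-dependent isocitrate dehydrogenase, had 476, 569 and 1120 in WT and 209.6, 313 and 165 in KO, a log2 difference of -1.60 ± 0.37 (limma, adjusted p = 0.183). Its regulatory partners Idh3b and Idh3g differed by -0.92 ± 0.27 and -0.82 ± 0.25. Fh1, fumarase, had 328, 519 and 696 in WT and 182, 200.2 and 191 in KO, a log2 difference of -1.36 ± 0.27 (limma, adjusted p = 0.183), and its KO libraries lay close together. Sucla2, Suclg1 and Mdh2, the ATP-forming and shared subunits of succinyl-CoA ligase and mitochondrial malate dehydrogenase, differed by -0.84 ± 0.27, -0.75 ± 0.20 and -0.72 ± 0.19. Ogdh and Dlst, of the 2-oxoglutarate dehydrogenase complex, differed by -0.43 and -0.47, and Suclg2, the GTP-forming subunit, overlapped. Of the cytosolic and NADP-linked enzymes, Mdh1 and Me1 were lower without overlap (-0.45 ± 0.17 and -0.51 ± 0.21), while Idh1 and Idh2, which make NADPH from isocitrate, overlapped.

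The libraries ranked alike in many members. At 10 weeks 18 of the 40 members, or 45.0%, had the falling order 12AF, 11AF, 10AF, 14AF and then 13AF and 15AF, against 5.83% of genes tested. This is also the order of the skeletal muscle markers, and it was looked for after the values were seen. Scaled to the library total as CPM, Pfkm was at 276 to 879 in WT and 21.2 to 145 in KO at 10 weeks, and at 21.1 to 27.8 in WT and 16.95 to 19.1 in KO at 30 weeks. The 2 ages come from tables normalized separately, so these levels are set side by side with no test. With the skeletal muscle score as a covariate, the log2 difference of Pfkm in KO was -0.80, of Aldoa -0.87, of Gapdh -0.82, of Eno1 -0.86 and of Fh1 -1.03, and that of Pdk4 was 0.15. The members' median was then -0.50, with 38 of 40 lower and none past the adjusted threshold. With a seminal vesicle score in its place the median was -0.38. Neither score overlapped between KO and WT, so these values cannot tell group from score. In A537T at 10 weeks 21 of 40 members, or 52.5%, had the falling orders 12AF, 11AF, 10AF in WT and 16AF, 17AF, 18AF in A537T, as the skeletal muscle markers did, against 9.85% of genes.

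**Figure D3:**
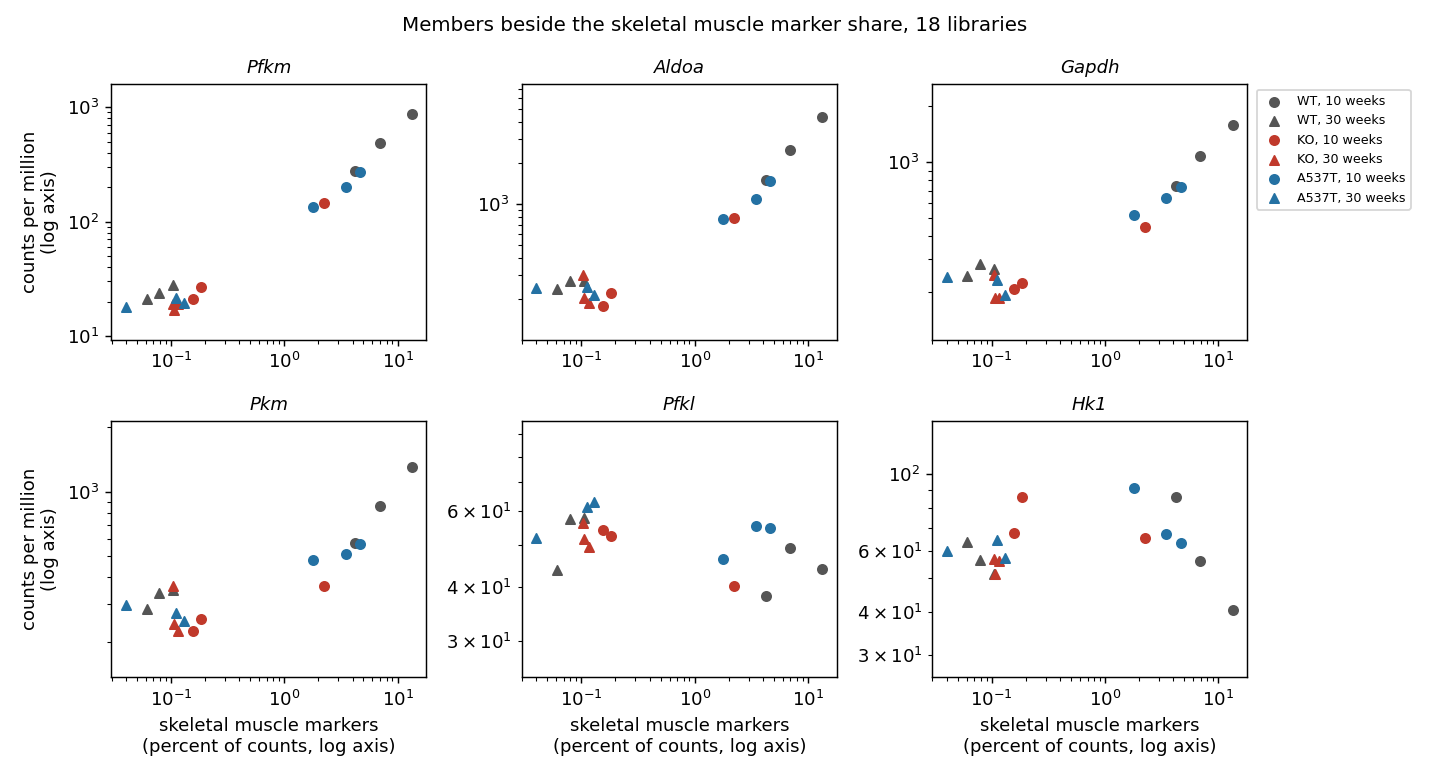
CPM, normalized counts scaled to the library total, of 6 members (y axis, log scale) beside the skeletal muscle marker share of the same library (x axis, percent of normalized counts, log scale), with 1 point for each of 18 libraries. In the 7 libraries with the largest marker shares Pfkm was at 134 or more CPM and in the other 11 at 27.8 or less, while Pfkl was between 38.0 and 62.8 in all 18.

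The A537T comparison at 10 weeks asked how the substitution changes these mRNAs. Of the 40 members 32 had a lower level than WT, 9 of them without overlap against 6.34% of genes, and none was higher without overlap against 5.58%. The median log2 fold change was -0.42 for the members and 0.011 for all genes tested. Over the 38 members other than Pfkm and Slc2a4 it was -0.41. Limma called no member and no gene at an adjusted p of 0.05 (0%), and at an unadjusted p under 0.05 it gave 9 members lower and none higher, against 3.67% and 2.76% of genes. With the skeletal muscle score as a covariate the members' median was -0.019 and 3 members were at an unadjusted p under 0.05 against 5.19% of genes, and with the seminal vesicle score 21 were, against 10.2%. The count of 9, beside 973 of 15131 genes in either direction, became 27 without WT library 10AF, beside 3015 genes. It was 1 without 11AF and 1 without 12AF, beside 607 and 711 genes. Without A537T library 16AF it was 11, beside 1015 genes, and without 17AF or 18AF it was 0, beside 462 and 514 genes.

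Of the 9 members lower without overlap in A537T, 7 belong to the 14 of the pyruvate dehydrogenase complex and the mitochondrial TCA cycle. Over these 14 the median log2 fold change was -0.43, and -0.030 with the skeletal muscle score as a covariate. Idh3a had 499, 585 and 1156 in WT and 479.8, 414 and 329.9 in A537T, a log2 fold change of -0.79 ± 0.32. Fh1 had 308, 478 and 643 in WT and 304, 295 and 224 in A537T, a log2 difference of -0.74 ± 0.28, its highest A537T library just under the lowest WT library. Pdha1, of pyruvate dehydrogenase, differed by -0.52 ± 0.19 and Idh3b by -0.54 ± 0.25, and the other members without overlap were Gpi1, Idh3g, Ogdh, Mdh2 and Mdh1. The adjusted p of these 9 from limma was 0.746 or higher. The muscle-rich Pfkm had 2291, 4185 and 9305 in WT and 2409, 1747 and 1049 in A537T, with A537T library 16AF above WT library 10AF, and a log2 difference of -1.45 ± 0.52. Aldoa differed by -1.23 ± 0.51, Tpi1 by -1.04 ± 0.42, Slc2a4 by -0.97 ± 0.45 and Ldha by -0.86 ± 0.40, each with overlap. Pfkp had 326, 146 and 176 in WT and 229.8, 388 and 586 in A537T, a difference of 0.88 ± 0.41 that did not separate the groups. The Pfkm share of phosphofructokinase counts per kilobase was 81.3, 72.7 and 59.9% in A537T and 82.6, 90.4 and 94.9% in WT (exact permutation p = 0.1, the smallest 3 against 3 allows). The other isoforms, all with overlap, differed by 0.18 ± 0.21 for Hk1, -0.47 ± 0.62 for Hk2, -0.059 ± 0.25 for Slc2a1, 0.15 ± 0.20 for Pfkl, -0.29 ± 0.31 for Ldhb, -0.44 ± 0.20 for Pdk1, -0.22 ± 0.23 for Pdk2 and -0.54 ± 0.52 for Pdk4 on the log2 scale.

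At 30 weeks, where skeletal muscle markers were low in all libraries, the members' median lay nearer 0. In KO 26 members had a lower and 14 a higher level than WT. Without overlap 9 were lower and 2 higher, against 8.41% and 7.92% of genes. The median log2 fold change was -0.061 over the members and -0.0067 over all genes tested. Over the 6 members from lower glycolysis it was -0.35. It was -0.075 over the 10 from the TCA cycle and 0.080 over the 4 from the pyruvate dehydrogenase complex. Limma called no member or gene at an adjusted p of 0.05 (0%). At an unadjusted p under 0.05 it gave 9 members lower and 2 higher, against 5.41% and 5.56% of genes. Without KO library 5AF limma called 7 members against 6.41% of genes. The median over lower glycolysis was -0.14 with the seminal vesicle score as a covariate and -0.12 without KO libraries 4AF and 6AF. The 11 members at an unadjusted p under 0.05, beside 1616 of 14729 genes, became 3 with the seminal vesicle score, beside 903 genes. With the skeletal muscle score they became 16, beside 2772 genes, and without 5AF 16, beside 3467. Scaling libraries to the same total gave 6, beside 1343 genes. Leaving out each of the other libraries gave 3 to 6, beside 760 to 1427 genes.

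Gapdh had 2365, 2285 and 2485 in WT and 1759, 2029 and 1756 in KO at 30 weeks, a log2 fold change of -0.37 ± 0.10 without overlap (limma, adjusted p = 0.392). Ldha had 1871, 1850 and 1780 in WT and 1261, 1549 and 1379 in KO, a log2 difference of -0.40 ± 0.10 (limma, adjusted p = 0.391). Members below 0.5 on the log2 scale are named here and in A537T for lying outside the WT range, a choice made after their values were seen. Eno1 had 1164, 1129 and 1150 in WT and 733, 1125 and 757 in KO and Tpi1 1147, 1130 and 1188 in WT and 795, 1110 and 878 in KO, and in both the libraries 4AF and 6AF lay well below 5AF. Idh3a had 231, 235 and 224 in WT and 139, 205 and 150.0 in KO, a log2 difference of -0.50 ± 0.17, with the same 2 libraries lowest. Pgk1 differed by -0.34 ± 0.12, Gpi1 by -0.35 ± 0.11, Pfkm by -0.38 ± 0.14 and Mdh2 by -0.23 ± 0.10, all without overlap. Higher without overlap were the NADP-linked isocitrate dehydrogenases Idh1, with 233, 291 and 265 in WT and 401, 303 and 380.3 in KO and a log2 difference of 0.45 ± 0.15, and Idh2, with 0.30 ± 0.12.

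**Figure D4:**
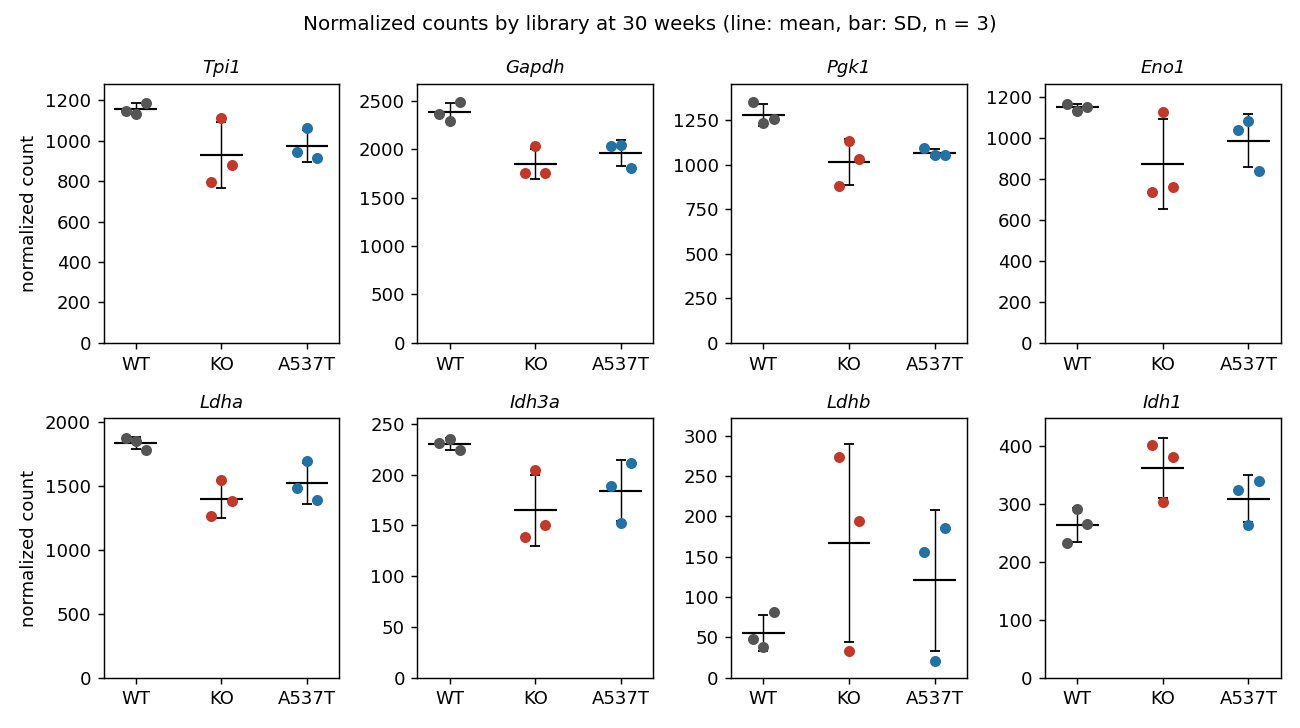
Normalized counts of 8 members at 30 weeks, with 1 point per library, grouped as WT, KO and A537T on the x axis (line, mean; bar, SD, n = 3; WT values from the KO table). A537T values come from their own table, normalized separately from the WT values drawn. The KO points of Gapdh and Ldha lie below all WT points, and Ldhb is high in 2 of 3 libraries of each mutant group.

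In A537T at 30 weeks 12 members were lower and 2 higher than WT without overlap, against 9.4% and 9.18% of genes. The median log2 fold change was -0.060 over the members, -0.26 over lower glycolysis and -0.0052 over all genes tested. Limma called none at an adjusted p of 0.05 (0% of genes), and at an unadjusted p under 0.05 7 members were lower and none higher, against 6.28% and 7.35% of genes. Without A537T library 8AF limma called 3 members against 8.27% of genes. The members' median was -0.17 with the seminal vesicle score as a covariate and -0.16 without A537T libraries 7AF and 9AF, with 35 of 40 members then lower in place of 24. The 7 members at an unadjusted p under 0.05, beside 2016 of 14789 genes, became 14 without 8AF, beside 3915 genes. Scaling libraries to the same total gave 2, beside 1827 genes. Leaving out each of the other libraries gave 1 to 5, beside 1032 to 1693 genes. Aldoc had 141, 94.0 and 162 in WT and 49.2, 72.3 and 61.3 in A537T, a log2 fold change of -1.09 ± 0.25 (limma, adjusted p = 0.246), the largest in size among the 40 in this comparison. Pkm had 3124, 2687 and 3028 in WT and 2382, 2522 and 2336 in A537T, a log2 difference of -0.29 ± 0.099, and Pgk1 had 1347, 1228 and 1258 in WT and 1093, 1055 and 1055 in A537T, a log2 difference of -0.26 ± 0.088. All A537T libraries of these 3 genes lay below all WT libraries. Gapdh, Tpi1, Pgam1, Eno1, Aldoa, Ldha, Pfkm, Idh3a and Ogdh were also lower without overlap, by 0.18 to 0.35 on the log2 scale. Pdhb and Dld, of the pyruvate dehydrogenase complex, were higher without overlap by 0.18 ± 0.11 and 0.20 ± 0.11. Plasma and B cell markers took 0.0455, 0.104 and 0.0233% of counts in the A537T libraries and 0.00714, 0.0115 and 0.0108% in WT. Macrophage markers took 0.0220, 0.0343 and 0.0160% in the A537T libraries and 0.0102 to 0.0128% in WT. The part of both in these results was not tested.

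**Figure D5:**
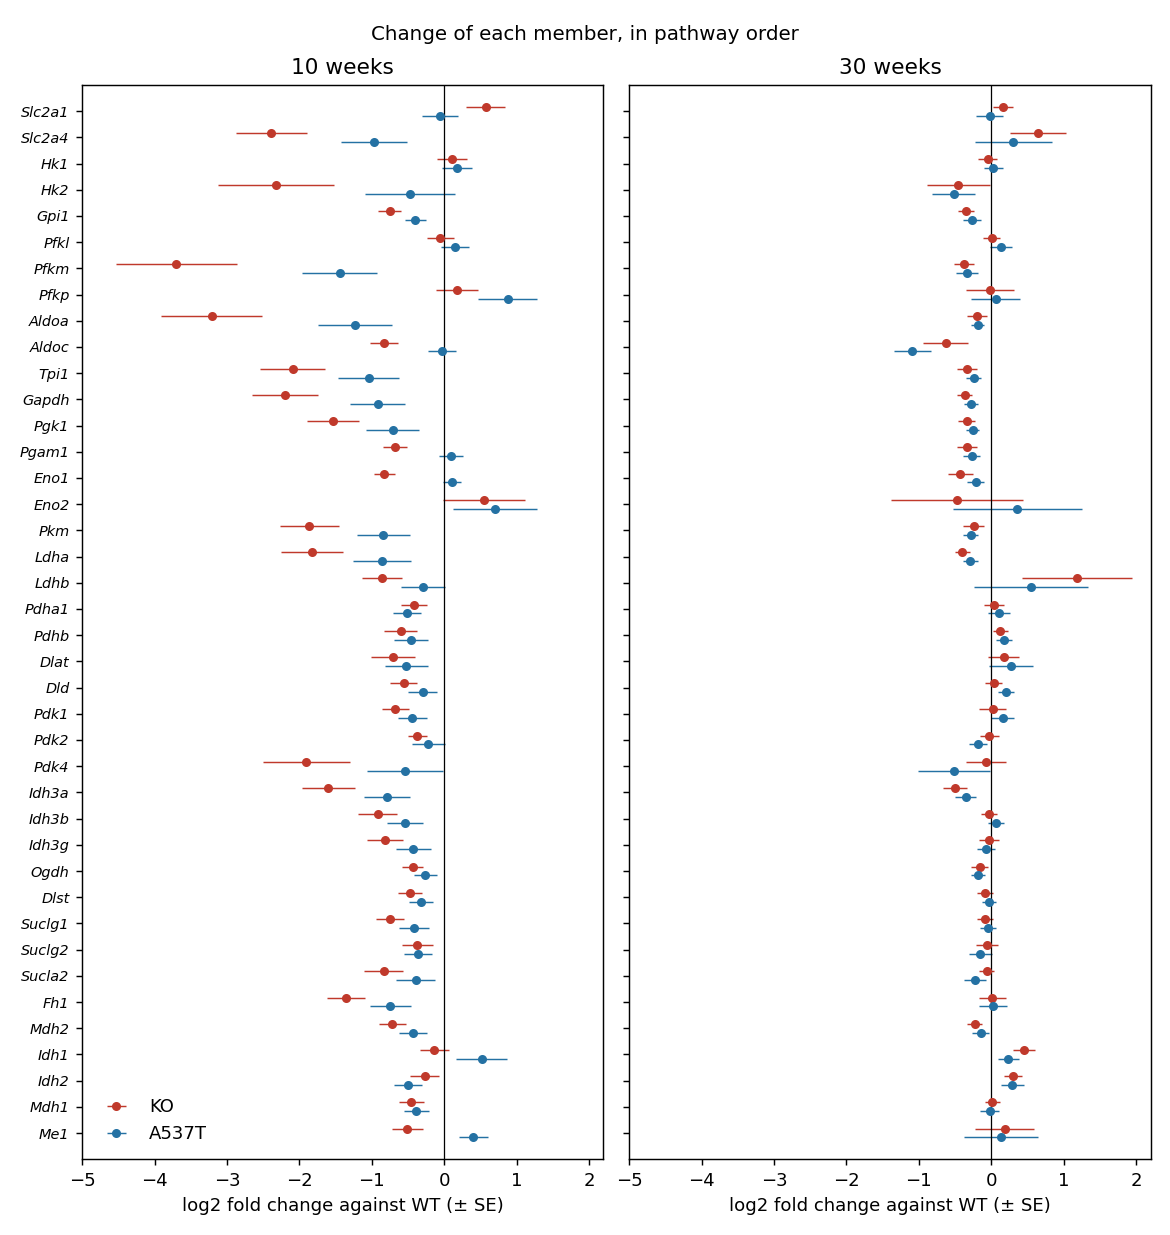
Log2 fold change against WT (x axis, ± SE) of the 40 members in pathway order (y axis), for KO in red and A537T in blue at 10 and 30 weeks. Most members lie left of 0 in KO at 10 weeks, with Pfkm at -3.70 the furthest, and the points at 30 weeks lie closer to 0.

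At 30 weeks Ldhb and Slc2a4 were high in the mutant libraries with seminal vesicle markers. Ldhb had 47.4, 38.0 and 81.2 in WT and 274, 33.0 and 194 in KO, and 156, 21.2 and 185 in A537T. The high values are those of libraries 4AF, 6AF, 7AF and 9AF, which hold seminal vesicle markers, and libraries 5AF and 8AF lay below every WT library. The log2 difference was 1.19 ± 0.76 in KO and 0.55 ± 0.79 in A537T, and -0.66 and -1.42 without those 4 libraries, an alternative added after the data were seen in which the lone mutant library is assumed to vary like WT. Slc2a4 had 57.1, 81.8 and 48.5 in WT and 98.4, 57.3 and 157 in KO, and 106, 31.8 and 142 in A537T, with the same libraries highest. Adipocyte markers took 0.00974, 0.0457 and 0.0180% in KO libraries 4AF, 5AF and 6AF, and 0.00364 to 0.0152% in WT. In A537T libraries 7AF, 8AF and 9AF they took 0.0436, 0.00322 and 0.0547%, beside 0.00371 to 0.0154% in WT. Their part in these results was not tested. In KO Slc2a1, Slc2a4, Ldhb and Pdha1 were above every WT library in 4AF and 6AF and not in 5AF, 4 of 40 members against 13.6% of genes, a share no higher than that of all genes. Aldoa, Aldoc, Pgam1, Pkm and Idh3b, 5 of 40, were below every WT library in 4AF and 6AF and not in 5AF, against 13.2%. In A537T 10 of 40 were above in 7AF and 9AF and not in 8AF, against 13.96%, and 3 were below, Hk2, Pdk2 and Suclg2, against 13.9%. Counted alone after the values were seen, KO library 5AF was below every WT library for 17 of 40 members against 25.8% of genes, and above every one for 6 against 25.6%. A537T library 8AF was below for 24 of 40 against 25.3% of genes, and above for 2 against 24.9%. In these single libraries Gapdh and Ldha differed from WT by -0.23 and -0.24 in KO and by -0.21 and -0.13 in A537T, Eno1 by -0.029 and -0.069. The remaining isoforms overlapped with WT at 30 weeks. In KO they differed by 0.17 ± 0.14 for Slc2a1, -0.048 ± 0.13 for Hk1, -0.46 ± 0.43 for Hk2, 0.0046 ± 0.12 for Pfkl, -0.020 ± 0.33 for Pfkp, 0.020 ± 0.18 for Pdk1, -0.025 ± 0.13 for Pdk2 and -0.076 ± 0.28 for Pdk4. In A537T they differed by -0.021 ± 0.19 for Slc2a1, 0.030 ± 0.13 for Hk1, -0.52 ± 0.30 for Hk2, 0.14 ± 0.15 for Pfkl, 0.061 ± 0.34 for Pfkp, 0.16 ± 0.16 for Pdk1, -0.19 ± 0.12 for Pdk2 and -0.51 ± 0.50 for Pdk4. Pfkm made up 33.8, 27.5 and 28.6% of phosphofructokinase counts per kilobase in WT, 26.9, 24.2 and 24.3% in KO and 24.7, 24.5 and 23.4% in A537T, below WT in all 6 mutant libraries (exact permutation p = 0.1 and 0.1, n = 3).

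Of the 9 members lower without overlap in KO at 30 weeks, 8 have a promoter in RefSeq's table of GRCm38.p6, and 3 of these hold the letters ACGTG, on either strand, within the 250 bases before a start listed there. The palindrome CACGTG holds it on both strands. The motif is the core shared by hypoxia response elements and some E-boxes. It was present in 14 of the 38 members with an entry, and in 36.2% of their 58 promoters against 16.6% of all 32851. The members without an entry were Slc2a4 and Idh3a. A match is a description of the sequence and not a site. The stretches around the first match are shown for these 3 genes, with every match, or its reverse complement CACGT, in capitals.
Pfkm (chr15:98092418-98092492, forward strand, GRCm38.p6): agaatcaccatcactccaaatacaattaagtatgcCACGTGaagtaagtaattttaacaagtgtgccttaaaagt
Pgk1 (chrX:106186915-106186989, forward strand, GRCm38.p6): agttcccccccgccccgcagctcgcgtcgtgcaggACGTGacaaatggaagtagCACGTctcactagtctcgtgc
Ldha (chr7:46845624-46845698, forward strand, GRCm38.p6): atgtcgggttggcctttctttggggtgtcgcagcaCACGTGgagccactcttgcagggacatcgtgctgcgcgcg

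Whether the change differed between the ages was tested as an interaction in each line, without a tissue score as a covariate. At 10 weeks skeletal muscle markers took 4.24 to 13.4% of counts in WT and 0.157 to 2.23% in KO. At 30 weeks they took 0.0399 to 0.130%, and their part in the difference between ages was not tested. In KO 36 of the 40 members had a change that was more positive at 30 than at 10 weeks, with a median difference of 0.68 against 0.031 over the 14295 genes tested. Limma called no member at an adjusted p of 0.05 (0% of genes), and 23 at an unadjusted p under 0.05 against 12.1% of genes. The difference was 3.32 ± 0.94 (adjusted p = 0.271, limma) for Pfkm, 3.03 ± 0.68 (adjusted p = 0.233, limma) for Slc2a4 and 1.37 ± 0.35 (adjusted p = 0.254, limma) for Fh1. In A537T 30 of 40 were more positive at 30 weeks, with a median of 0.36 against -0.0045, no call (0% of genes) and 5 members at an unadjusted p under 0.05 against 12.1% of genes. Aldoc alone of these 5 was more negative at 30 weeks, by -1.05 ± 0.32 (adjusted p = 0.263, limma). Without KO library 14AF limma called 2 members in the KO line against 0.21% of genes.

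A list of 54 other genes of carbon metabolism gave the surroundings of the members. At 10 weeks in KO 23 of the 44 tested were lower and 3 higher without overlap, against 14.3% and 11.7% of genes. Their median log2 fold change was -0.67. The isoforms of skeletal muscle had the largest differences. Pgam2, the muscle phosphoglycerate mutase, had 145 ± 248 against 1974 ± 1468 normalized counts in KO and WT (SD, n = 3), Eno3, the muscle enolase, 557 ± 883 against 7119 ± 5241, and Pygm, the muscle glycogen phosphorylase, 647 ± 967 against 7115 ± 4893, each without overlap. Fbp2, the muscle fructose bisphosphatase, had 4.48 ± 6.32 against 80.4 ± 65.6. Smaller were the log2 fold changes of -0.72 ± 0.22 for citrate synthase Cs and -0.69 ± 0.24 for succinate dehydrogenase Sdha, both without overlap (adjusted p = 0.189 and 0.206 from limma). In A537T at 10 weeks 14 of 45 were lower and 3 higher without overlap, against 6.34% and 5.58% of genes. Pgam2, Eno3 and Pygm differed there by -1.35 ± 0.57, -1.42 ± 0.54 and -1.30 ± 0.54, with overlap. Eno1b passed the filter only there, with 8.63 ± 10.4 against 12.95 ± 13.98 normalized counts in A537T and WT. At 30 weeks 1 of 41 was lower and 7 were higher without overlap in KO, against 8.41% and 7.92% of genes. In A537T 4 of 42 were lower and 3 higher without overlap, against 9.4% and 9.18%. Cs was then at 864 ± 70.0 against 853 ± 101 in KO and WT, with overlap.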

How the data were processed

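RNA from ventral and lateral lobes was sequenced by the study in 3 libraries for each of 6 groups. The authors trimmed reads with Trim Galore (0.4.1) and cutadapt (1.18), aligned them with STAR (2.7.3a) to GRCm38.p6 with nuclear mitochondrial sequence masked, quantified genes by strand with Salmon and scaled them with DESeq2 (1.26). They deposited a normalized signal per gene, an estimated count divided by a size factor for each library, in 4 tables of 6 libraries. Result tables with shrunken fold changes and s-values were not used. Columns held by both tables of an age were taken as WT and the others as the mutant group that the table is named for. The same WT library gave member shares of the library total that differed by a factor of 0.886 to 1.16 between its 2 tables. Each fold change and test against WT therefore stayed within 1 table, and the test between ages set such fold changes side by side.

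Genes with a mean of at least 10 were fitted with limma (3.58.1, R 4.3.3) on log2(value + 1), with a mean trend and Benjamini-Hochberg adjustment over all genes tested. Fold changes are on that scale and understate the change of low genes. In all 18 libraries the values were whole multiples of 1 read within 0.01 read (100% of values), which gave the depth. On the KO table of 10 weeks, edgeR (4.0.16) and DESeq2 (1.42.0) were also run on these counts. They were not run on the other 3 tables, each of which holds 1 or more of libraries 18AF, 3AF and 7AF, whose reads a stricter check of the steps did not accept as whole. Scripts were tested on simulated data, in which DESeq2 also called unchanged genes at above its nominal rate. Shares used exact permutation tests (scipy 1.17.1), two-sided, over 3 against 3 libraries. Levels per kilobase used the annotated exon length. Values are per gene symbol. Aldoa has a second entry with at most 4.30 normalized counts, which was left out.

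Fold changes with errors are given for members without overlap and a size of at least 0.5 (log2), those of at least 1, and a set of 12 isoforms in every comparison, with named genes of the wider pathway, 1 of which is not reported here. The members and lists were chosen with earlier results of these data known. Alternatives covered the pseudocount (8), the filter on low values (1, 100 or none), scaling, the mean trend, tissue scores as covariates, the count tests and each library left out.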

Additional observations from a re-analysis of the deposited data

How the results depend on the processing

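No paired analysis was possible because the columns carry no replicate numbers. The count of 0 members past the adjusted threshold from limma held under other pseudocounts, filters, scalings, covariates and without the mean trend in all 4 comparisons, and edgeR also gave 0 in KO at 10 weeks. There DESeq2 gave 17, and leaving out 1 library gave 0 to 26 members, with 26 without WT library 10AF (19.2% of genes) and 2 without KO library 14AF (1.23% of genes). It gave 0 to 7 in KO at 30 weeks, with 7 without 5AF (6.41% of genes), and 0 to 3 in A537T at 30 weeks, with 3 without 8AF, near the 8.27% of genes so called. The difference between ages in KO gave 0 to 2 members, with 2 without 14AF. The cause was not tested. The members' median in KO at 10 weeks was -0.38 under the seminal vesicle covariate, and in A537T at 10 weeks -0.019 under the skeletal muscle covariate. Over the libraries left out it ran from -0.84 to -0.53 in KO of 10 weeks, from -0.58 to -0.20 in A537T of that age, and from -0.11 to -0.062 and -0.14 to -0.030 at 30 weeks. Of the other gene values, 1944 kept their direction and side of the threshold, 61 passed it under an alternative and 116 took the other sign, as follows. Under quantile normalization, the sign in KO at 10 weeks changed for Pfkl (0.041). Under quantile normalization, the sign in A537T at 30 weeks changed for Sdha (0.059). Under scaling to the same total, the sign in KO at 10 weeks changed for Pfkl (0.16). Under scaling to the same total, the sign in A537T at 10 weeks changed for Slc2a1 (0.079). Under scaling to the same total, the sign in KO at 30 weeks changed for Pfkl (-0.0024). Under scaling to the same total, the sign in A537T at 30 weeks changed for Slc2a1 (0.0028) and Sdha (0.0052). Under the seminal vesicle covariate, the sign in KO at 10 weeks changed for Hk1 (-0.12) and Pfkl (0.11). Under the seminal vesicle covariate, the sign in A537T at 10 weeks changed for Slc2a1 (0.053). Under the seminal vesicle covariate, the sign in KO at 30 weeks changed for Slc2a1 (-0.043), Hk2 (0.15), Pfkl (-0.042), Pfkp (0.13), Ldhb (-0.53), Pdk1 (-0.27), Eno3 (0.12), Cs (-0.074) and Sdha (0.036). Under the seminal vesicle covariate, the sign in A537T at 30 weeks changed for Slc2a4 (-0.88), Hk1 (-0.023), Pfkl (-0.10), Pfkp (-0.0099), Ldhb (-1.32), Pdk1 (-0.071) and Eno3 (0.086). Under the skeletal muscle covariate, the sign in KO at 10 weeks changed for Slc2a1 (-0.057), Hk1 (-0.10), Pfkp (-0.25), Pdk4 (0.15) and Pgam2 (0.50). Under the skeletal muscle covariate, the sign in A537T at 10 weeks changed for Hk1 (-0.27), Hk2 (0.89), Aldoa (0.0028), Ldha (0.065), Pdk1 (0.0020), Pdk2 (0.25), Pdk4 (0.81), Ogdh (0.027), Pgam2 (0.069), Pygm (0.096), Fbp2 (0.11) and Sdha (0.12). Under the skeletal muscle covariate, the sign in KO at 30 weeks changed for Pfkl (-0.012) and Pfkp (0.045). Under the skeletal muscle covariate, the sign in A537T at 30 weeks changed for Slc2a1 (0.15), Hk1 (-0.046), Pfkp (-0.27), Pdk4 (0.18), Eno3 (0.0013), Cs (-0.023) and Sdha (0.051). Under the mutant library without seminal vesicle RNA alone (added after the data were seen), the sign in KO at 30 weeks changed for Slc2a1 (-0.071), Slc2a4 (-0.089), Hk2 (0.26), Pfkl (-0.029), Pfkp (0.066), Ldhb (-0.66), Pdk1 (-0.29), Eno3 (0.21), Cs (-0.099) and Sdha (0.062). Under the mutant library without seminal vesicle RNA alone (added after the data were seen), the sign in A537T at 30 weeks changed for Slc2a4 (-0.97), Hk1 (-0.049), Pfkl (-0.099), Pfkp (-0.098), Ldhb (-1.42), Pdk1 (-0.083) and Eno3 (0.18). Leaving out 1 library at a time, the sign in KO at 10 weeks changed for Pfkl (-0.22 to 0.063), Pfkp (-0.051 to 0.51) and Hk1 (-0.044 to 0.31). Leaving out 1 library at a time, the sign in A537T at 10 weeks changed for Slc2a1 (-0.34 to 0.11), Pfkl (-0.013 to 0.29), Hk2 (-1.21 to 0.13), Ldhb (-0.45 to 0.0053), Eno1b (-1.51 to 0.26), Pdk2 (-0.41 to 0.029) and Pdk4 (-0.95 to 0.012). Leaving out 1 library at a time, the sign in KO at 30 weeks changed for Pdk2 (-0.11 to 0.071), Pdk4 (-0.26 to 0.15), Eno3 (-0.40 to 0.39), Cs (-0.080 to 0.083), Hk1 (-0.13 to 0.059), Pfkl (-0.10 to 0.061), Pfkp (-0.37 to 0.34), Pygm (-0.19 to 0.33), Pdk1 (-0.11 to 0.18) and Sdha (-0.14 to 0.014). Leaving out 1 library at a time, the sign in A537T at 30 weeks changed for Hk1 (-0.055 to 0.14), Pfkp (-0.28 to 0.42), Eno3 (-0.59 to 0.22), Cs (-0.068 to 0.089), Sdha (-0.068 to 0.042), Slc2a1 (-0.15 to 0.18), Pdk4 (-0.96 to 0.050), Slc2a4 (-0.12 to 0.95) and Ldhb (-0.0061 to 1.53). The edgeR and DESeq2 alternatives were not run for the other 3 tables, in each of which a stricter check of the steps did not accept 1 library, and a minimum mean of 100 dropped members below it. With 3 libraries a group, exact permutation tests cannot go below p = 0.1.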
